A study of Mus musculus with 6 samples.

Results

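The genes of the mouse mitochondrial genome were followed in ribosome profiles of the heart. All rows whose identifier starts with mt- were taken, which gave 37 of the 49585 gene rows: 13 protein genes, 2 rRNA genes and 22 tRNA genes. All 37 lie on the mitochondrial chromosome (MT), and their starts and ends in the deposited table match those of GRCm38.p6 in RefSeq.

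Mitochondrial DNA is a small circle that is copied into long transcripts from both strands. In most places a tRNA separates the genes, and cutting out the tRNAs frees the rRNAs and mRNAs. The rRNAs build the mitochondrion's own ribosome, which makes membrane subunits of respiratory complexes I, III and IV and of the ATP synthase (complex V). All other subunits, and every protein that copies, cuts or translates these RNAs, are made in the cytosol from nuclear genes. Heart muscle is dense in mitochondria, because it meets most of its need for ATP by respiration.

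The PG libraries came from hearts of male mice kept at lunar gravity, 0.167 g, in a habitat cage on the space station that was spun at 31 rpm with a radius of 15 cm. The GC libraries came from the ground control at 1 g, male C57BL/6J mice held under conditions matched to the station. Animals of both groups were 8 or 9 weeks old, and each group had 3 libraries. PG and GC differ in space flight as well as in gravity. The labels name the strain for GC, give 6 GC mice per mission and assign no library to a mission. Nothing in them ties a library to an animal of its own, so p-values measure only the spread between these libraries, which may be technical.

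Each library holds fragments of 25 to 35 nt that were left after RNase I digestion and pelleted through 50% sucrose. Mitochondria were spun out with nuclei and debris before the digestion, so the mitochondrial reads come from what that step left in the extract. How much it left in each library was not measured, so a difference in that remainder and a difference in these RNAs cannot be told apart. Matched RNA-seq was not used here, and a count combines the amount of an RNA with the ribosomes on it. In a bulk sample, fewer cells of a type and less RNA per cell cannot be told apart either.

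The libraries held 7766936 to 11507207 mapped reads and 2212473 to 3196070 exon reads. Lars2 and Tmem38b alone accounted for 45.5% to 52.5% of the exon reads. PG replicate 3 stood apart: in total exon reads scaled by TMM factors it had the highest level of all 13 mitochondrial protein genes. The lowest level of all 13 on that scale was in GC replicate 1. On unique exon reads PG replicate 3 was highest for 12 and GC replicate 1 lowest for 10. GC replicate 1 was also high in several tRNAs. The log2 fold changes of the protein genes are also given below without PG replicate 3, and those of several tRNAs without GC replicate 1.

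The 13 protein genes differ in how many of their exon reads were counted as unique. Whether unique means a single place in the genome or a single gene row is not given in the sources used here. Nearly every exon read of mt-Nd1 (100%), mt-Atp8 (99.4%), mt-Nd2 (98.1%), mt-Cytb (98.1%) and mt-Nd6 (96.8%) was counted as unique. For mt-Nd5 the share was 79.9%, for mt-Nd4 45.2% and for mt-Co1 31.0%. In the other 5 genes it was under 5%, with 4.22% for mt-Nd3, 1.73% for mt-Nd4l, 0.856% for mt-Atp6, 0.730% for mt-Co3 and 0.704% for mt-Co2.

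The genes with few unique reads form a run on the map, broken by mt-Atp8, that goes from mt-Co1 (positions 5328 to 6872) to mt-Nd4 (positions 10167 to 11544). Chromosome 1 carries 7 rows in a stretch from 24611535 to 24616197 (GRCm38), among them Gm10925, a pseudogene for which RefSeq lists mt-Atp6 as a synonym. These 7 rows held 76 gene reads and 0 exon reads over the 6 libraries. Few reads were thus counted at these 7 rows. In order, their exon lengths were 876, 294, 345, 783, 678, 681 and 492 bases. All but those at the ends are close to mt-Nd4l (297), mt-Nd3 (348), mt-Co3 (784), mt-Atp6 (681) and mt-Co2 (684), in reverse map order. Those at the ends are shorter than mt-Nd4 (1378) and mt-Co1 (1545). Sequences were not compared, so whether the non-unique mitochondrial reads could fit there was not tested. The tests of the protein genes were repeated on unique reads.

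**Figure D1:**
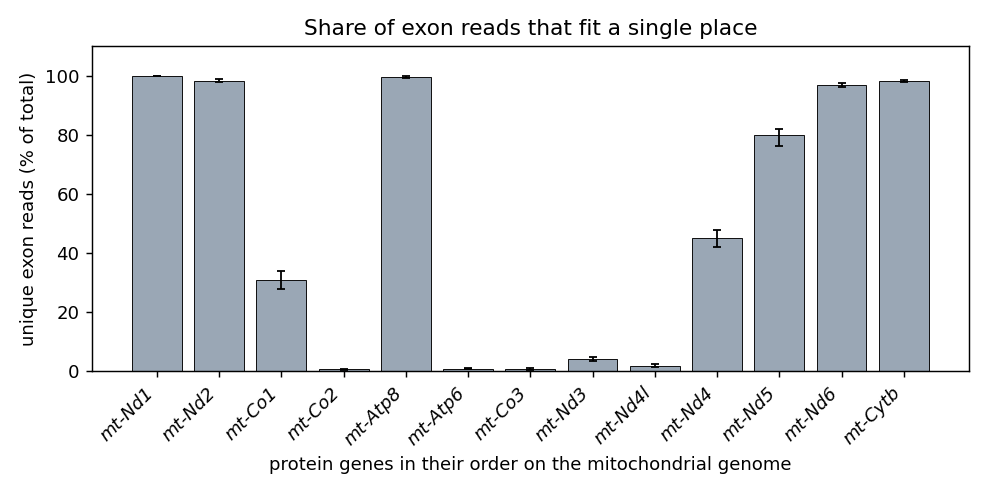
Bars give unique exon reads as a percentage of total exon reads over the 6 libraries for each mitochondrial protein gene, in map order. Whiskers give the lowest and highest library. Of the 13 genes, 5 lie under 5%, from mt-Nd3 at 4.22% to mt-Co2 at 0.704%, while mt-Nd1, mt-Nd2, mt-Atp8, mt-Nd6 and mt-Cytb are above 96%.

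Some neighbours also share bases. The ends of mt-Atp8 (7766 to 7969) and mt-Atp6 (7927 to 8607) overlap by 43 bases, mt-Nd4l (9877 to 10173) and mt-Nd4 by 7, and mt-Nd5 (11742 to 13565) and mt-Nd6 (13552 to 14070) by 14. mt-Nd6 is the protein gene read from the opposite strand. Whether the counting used the strand is not given in the sources used here, so reads from the overlaps, and reads of RNA antisense to any of these genes, cannot be told apart.

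Mitochondrial protein genes took a larger share of the exon reads in the PG libraries. Their exon reads made up 3.65%, 3.62% and 4.32% of all exon reads in the PG libraries, against 2.41%, 2.88% and 3.33% in the GC libraries. The 3 PG values lay above the 3 GC values. The means were 3.86% ± 0.399 in PG and 2.88% ± 0.461 in GC (SD, n = 3 each), a ratio of 1.34, with a two-sided exact permutation p of 0.1, the smallest that 3 against 3 can give.

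Other denominators gave the same order. On unique exon reads alone the share averaged 2.73% in PG and 1.95% in GC, again without overlap. Of all mapped reads, the 13 genes took 1.19% ± 0.137 in PG and 0.797% ± 0.150 in GC (SD, n = 3). Without PG replicate 3 the PG group stood at 3.65% and 3.62%, still above all GC libraries.

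Counted over genes, all 13 had a positive log2 fold change (PG over GC), with a median of 0.45, where the median of the 9124 genes tested was -0.0017 and 11.7% of them lay above 0.45. With p-values from edgeR's quasi-likelihood fit, Benjamini-Hochberg adjusted over all genes tested, 3 rose (mt-Nd3, mt-Nd2 and mt-Cytb) and 10 did not pass. Across all tested genes 0.252% were called higher (adjusted p under 0.05). Which genes passed depended on the tool. DESeq2 called 5 higher (mt-Nd1, mt-Nd4, mt-Nd5, mt-Atp6 and mt-Cytb), where it called 0.592% of all tested genes higher, and only mt-Cytb was shared with the edgeR calls. limma-voom called 6 (mt-Nd2, mt-Nd3, mt-Nd4l, mt-Nd4, mt-Nd5 and mt-Cytb), the 3 edgeR genes among them, where it called 0.34%. The PG and GC libraries did not overlap for 8 of the 13 genes, all with PG above, against 8.06% of all tested genes. Single libraries set this number of calls. Removing GC replicate 1, GC replicate 2 or PG replicate 3 gave 0, removing PG replicate 2 gave 2, removing GC replicate 3 gave 3 and removing PG replicate 1 gave 4. Without PG replicate 3 the log2 fold changes were smaller, at 0.24 for mt-Nd1, 0.40 for mt-Nd4l, 0.34 for mt-Nd4, 0.31 for mt-Nd5, 0.044 for mt-Nd6, 0.26 for mt-Atp6 and 0.23 for mt-Atp8; those of the other 6 genes are given with each gene.

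**Figure D2:**
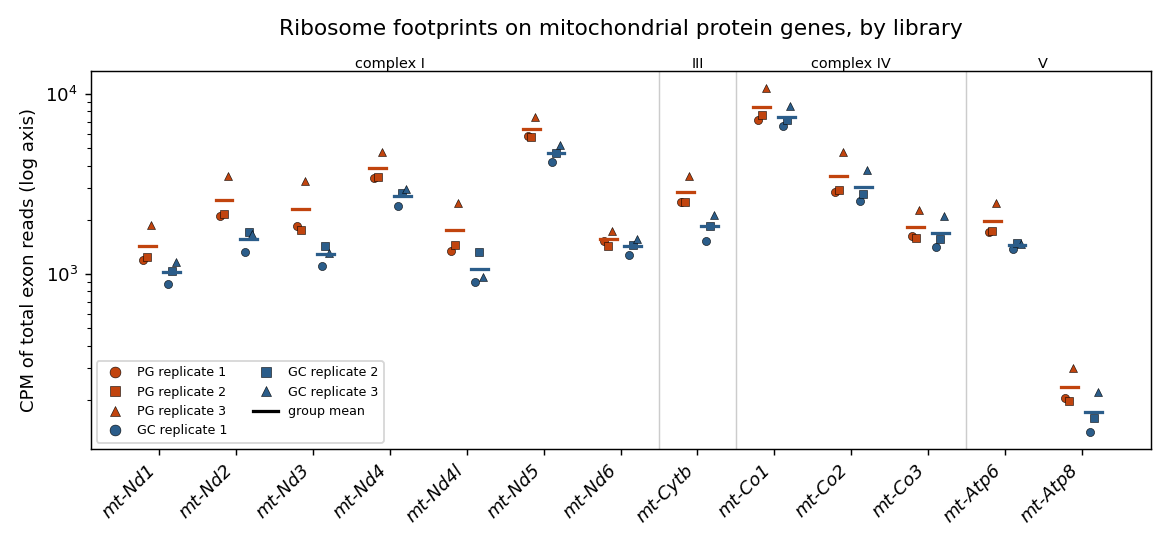
CPM (counts per 1000000 exon reads, TMM-scaled, log axis) of the 13 mitochondrial protein genes, grouped by complex, with PG left of GC. Points are libraries and bars are group means. PG replicate 3, the upward triangle at left of each pair, is the highest library for all 13 genes, and the groups are closest for mt-Nd6 and the mt-Co genes.

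Complex I, the NADH dehydrogenase through which most electrons enter the chain, has 7 subunits made in the mitochondrion, and its genes held the largest differences. The gene for the small membrane subunit mt-Nd3 (9459 to 9806) had 1836, 1749 and 3278 CPM (counts per 1000000 exon reads, scaled by TMM factors) in PG, against 1112, 1433 and 1311 CPM in GC. All PG libraries were above all GC libraries, with PG replicate 3 far above the other 2. The fold was 1.78, with a log2 fold change of 0.83 ± 0.17 (SE) at an adjusted p of 0.0216 (edgeR). Without PG replicate 3 the log2 fold change was 0.48 with an adjusted p of 0.0766 (edgeR), and DESeq2 on all 6 libraries gave an adjusted p of 0.127.

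mt-Nd2 (3914 to 4951), 1 of the proton-pumping subunits, had 2105, 2141 and 3478 CPM in PG, against 1328, 1702 and 1677 CPM in GC. Again the groups did not overlap. The fold was 1.64, with a log2 fold change of 0.71 ± 0.16 (SE) at an adjusted p of 0.0321 (edgeR). It was 0.44 without PG replicate 3, with an adjusted p of 0.112 (edgeR), and the adjusted p of DESeq2 on all 6 libraries was 0.111. Unlike mt-Nd3, this gene rests almost wholly on unique reads, and on them its adjusted p was 0.00147.

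Both calls depended on which libraries were in the fit. When libraries were removed 1 at a time, mt-Nd2 and mt-Nd3 each passed in 3 of 6 fits; the highest adjusted p (edgeR) was 0.162 for mt-Nd2 and 0.102 for mt-Nd3, each without GC replicate 2. On unique reads mt-Nd2 passed in 6 of 6 such fits, its adjusted p being at most 0.0418, and mt-Nd3 in 3.

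The remaining complex I genes did not pass. mt-Nd4l, a small membrane subunit, had 1343, 1457 and 2487 CPM in PG, against 902, 1329 and 964 CPM in GC. Its groups did not overlap, and the log2 fold change was 0.73 ± 0.18 (SE), with an adjusted p of 0.0594 (edgeR). It was called in 1 of the 6 fits on 5 libraries. On its unique reads, 380 in all, the log2 fold change was 0.33 and the adjusted p 0.736.

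The pump subunits mt-Nd4 and mt-Nd5 had log2 fold changes of 0.51 ± 0.13 and 0.44 ± 0.12 (SE), with adjusted p-values of 0.0704 and 0.119 (edgeR), and neither pair of groups overlapped. On unique reads both passed, at 0.0109 for mt-Nd4 and 0.00842 for mt-Nd5, and with 1 library removed each passed in 3 of 6 fits on unique reads, with adjusted p-values of at most 0.125 and 0.132 (edgeR). mt-Nd1 (2751 to 3707), a subunit at the quinone-binding end, averaged 1431 ± 375 CPM in PG and 1026 ± 142 CPM in GC (SD, n = 3). Its log2 fold change was 0.48 ± 0.15 (SE), with an adjusted p of 0.180 (edgeR).

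mt-Nd6, the complex I gene on the opposite strand, stood lowest among the 7 in its difference. It had 1516, 1422 and 1732 CPM in PG, against 1271, 1442 and 1566 CPM in GC. The groups overlapped, and the log2 fold change was 0.13 ± 0.12 (SE), with an adjusted p of 0.785 (edgeR).

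Complex III holds a single protein made in the mitochondrion, cytochrome b, which carries the complex's quinone sites. Its gene mt-Cytb (14145 to 15288) had 2508, 2515 and 3505 CPM in PG, against 1534, 1838 and 2135 CPM in GC. Every PG library was above every GC library. The fold was 1.55, with a log2 fold change of 0.63 ± 0.14 (SE) at an adjusted p of 0.0328 (edgeR). Leaving out PG replicate 3 gave 0.45 and an adjusted p of 0.115 (edgeR). It passed in 2 of the 6 fits on 5 libraries, and its highest adjusted p there was 0.271, without GC replicate 2. On unique reads the adjusted p was 0.00228, and it passed in 5 of those 6 fits, with at most 0.0678.

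The 3 genes of complex IV, cytochrome c oxidase, were close between the groups. mt-Co1 encodes the catalytic subunit that reduces oxygen. It had 7148, 7631 and 10715 CPM in PG, against 6602, 7187 and 8584 CPM in GC, and the groups overlapped. Its log2 fold change was 0.19 ± 0.14 (SE), with an adjusted p of 0.698 (edgeR).

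mt-Co2 (7013 to 7696), whose protein takes electrons from cytochrome c, averaged 3509 ± 1087 CPM in PG and 3041 ± 644 CPM in GC (SD, n = 3). mt-Co3 (8607 to 9390), a structural core subunit, averaged 1820 ± 386 CPM in PG and 1691 ± 369 CPM in GC. Their log2 fold changes were 0.21 ± 0.16 and 0.10 ± 0.15 (SE), with adjusted p-values of 0.726 and 0.871 (edgeR). On unique reads, 364 for mt-Co2 and 204 for mt-Co3 in all, they were -0.03 and -0.07. Without PG replicate 3 the log2 fold changes were -0.01 for mt-Co1, -0.08 for mt-Co2 and -0.08 for mt-Co3.

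The ATP synthase genes lay in between. mt-Atp6, which encodes the subunit of the proton channel, had 1708, 1741 and 2471 CPM in PG, against 1383, 1482 and 1473 CPM in GC, without overlap. Its log2 fold change was 0.45 ± 0.13 (SE), with an adjusted p of 0.148 (edgeR). mt-Atp8, a short subunit of the membrane part, averaged 235 ± 57.5 CPM in PG and 171 ± 45.6 CPM in GC (SD, n = 3), and its groups overlapped. Its log2 fold change was 0.44 ± 0.17 (SE), with an adjusted p of 0.350 (edgeR); with 1 library removed it lay between 0.23 and 0.68.

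**Figure D3:**
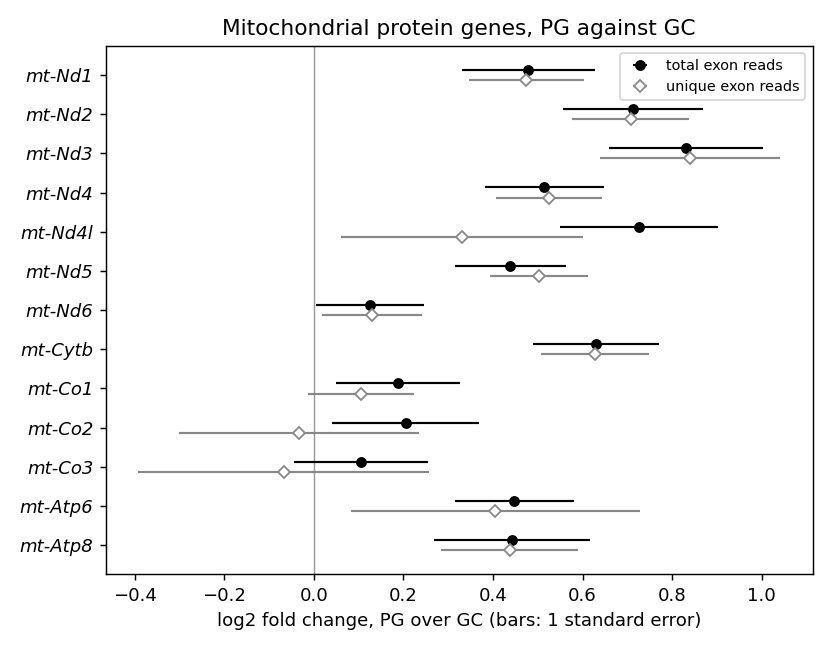
Log2 fold change of PG over GC, with 1 standard error, for each protein gene on total exon reads (filled circles) and on unique exon reads (open diamonds). mt-Nd2, mt-Nd3 and mt-Cytb keep their values on unique reads, while mt-Nd4l falls to 0.33 and mt-Co2 and mt-Co3 lie at -0.03 and -0.07 with wide errors.

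On unique reads 11 of the 13 log2 fold changes were positive, with a median of 0.44. There 5 genes were called higher (mt-Nd2, mt-Cytb, mt-Nd5, mt-Nd4 and mt-Nd3) in edgeR, where 0.456% of the 8342 genes tested were. On unique reads, removing GC replicate 2 gave 1 call, removing GC replicate 1 or PG replicate 3 gave 2, and removing PG replicate 2, PG replicate 1 or GC replicate 3 gave 5, 6 or 7. The authors' deposited table, whose test was run on expression values, gives 11 of the 13 genes a fold above 1 in PG. In that deposited table of the authors, 6 of the 13 have an unadjusted p under 0.05 (2.87% of all genes do) and none passes a false discovery rate of 0.05, the lowest being 0.614 for mt-Cytb, while 31 of all genes pass (0.0625%).

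Within the mitochondrial protein reads, the balance between complexes differed. Complex I genes held 51.9%, 50.9% and 51.1% of these reads in PG, against 47.0%, 49.1% and 44.7% in GC. Complex IV genes held 34.8%, 35.9% and 36.2% in PG, against 41.1%, 39.2% and 43.7% in GC. Neither pair of groups overlapped. Complex I averaged 51.3% ± 0.512 in PG and 46.9% ± 2.16 in GC, and complex IV 35.6% ± 0.688 in PG and 41.3% ± 2.28 in GC (SD, n = 3).

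Cytochrome b, the complex III share, was 7.37% ± 0.204 in PG and 6.22% ± 0.239 in GC, again without overlap, while the ATP synthase share was 5.71% ± 0.054 in PG and 5.53% ± 0.394 in GC and overlapped. The exact permutation p was 0.1, the smallest possible, for complexes I, III and IV and 0.6 for complex V. These shares do not depend on how much mitochondrial RNA a library held, but they add up to a fixed total, so a larger share of 1 complex goes with a smaller share of others.

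The complex I difference depended on the reads counted. On unique reads, where the low-unique genes hardly count, complex I held 69.0% in PG and 67.1% in GC and the groups overlapped. Without mt-Nd6 the unique-read share was 60.6% in PG and 56.7% in GC and did not overlap. Leaving out mt-Nd6 was not planned, and its own unique-read share was lower in PG (8.42%) than in GC (10.4%). The value without it is therefore a description only. Complex IV, then almost wholly mt-Co1, held 14.3% of unique reads in PG and 18.0% in GC, without overlap.

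**Figure D4:**
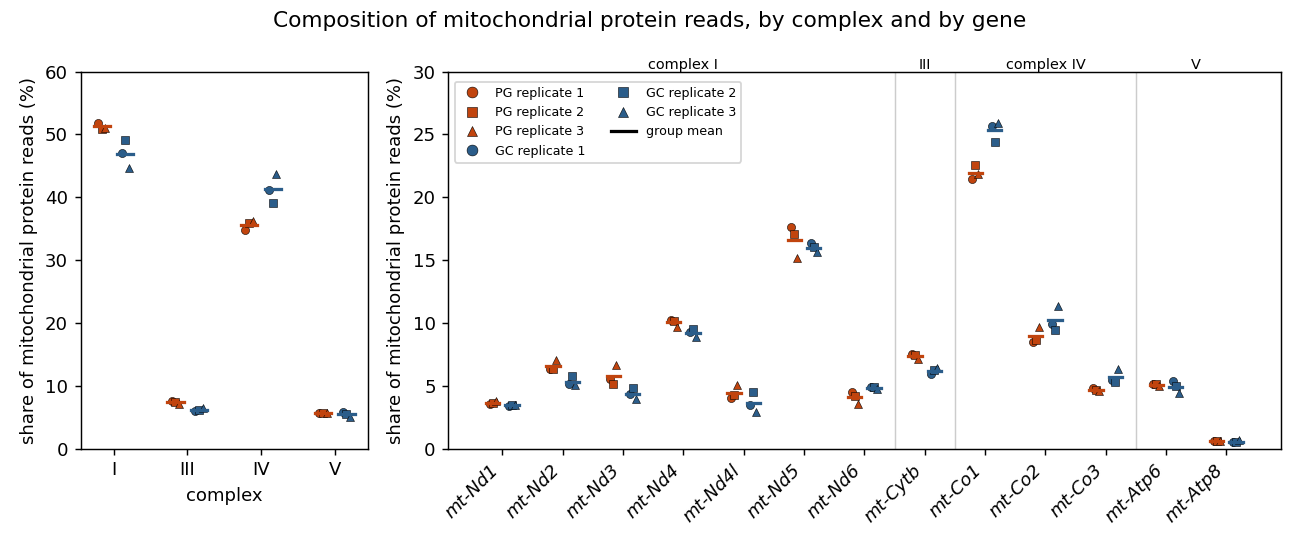
Share of mitochondrial protein reads (total exon reads, percent) by complex at left and by gene at right, with PG left of GC in each pair. Points are libraries and bars are group means. Complex I is at 51.3% in PG and 46.9% in GC and complex IV at 35.6% in PG and 41.3% in GC.

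By gene, 9 shares were higher in PG and 4 lower. The groups did not overlap for mt-Nd1, mt-Nd2, mt-Nd3, mt-Nd4 and mt-Cytb, higher in PG, and for mt-Co1, mt-Co3 and mt-Nd6, lower in PG. On unique reads the shares of mt-Nd1 (7.82% in PG, 7.73% in GC) and mt-Nd4 (9.70% in PG, 9.24% in GC) overlapped, as did that of mt-Nd4l (0.151% in PG, 0.168% in GC), which was then lower in PG. As reads per mitochondrial protein read, 1.11% of all tested genes lay in PG above GC without overlap and 20.4% lay below. Counting error, as a 95% Wilson interval, was at most ± 0.371 percentage points for a single gene. It was smaller than the gap between the nearest PG and GC libraries for mt-Nd2, mt-Nd3, mt-Cytb, mt-Co1 and mt-Co3. For mt-Nd1 (± 0.154), mt-Nd4 (± 0.246) and mt-Nd6 (± 0.184) it was larger than that gap.

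The largest difference in points was that of mt-Co1, with 21.5%, 22.6% and 21.8% in PG, against 25.7%, 24.4% and 25.9% in GC. mt-Nd3 held 5.51%, 5.17% and 6.68% in PG, against 4.33%, 4.86% and 3.96% in GC. mt-Nd6 held 4.55%, 4.21% and 3.53% in PG, against 4.95%, 4.89% and 4.73% in GC. PG replicate 3 was the most extreme library for mt-Nd3 and mt-Nd6, and it lay in the middle of the PG group for mt-Co1. With the fit scaled to mitochondrial protein reads instead of TMM, edgeR called 0 of the 13, and 0 passed an unadjusted p under 0.05; this scaling was not run with other tools. The log2 fold changes then ran from -0.28 (mt-Co3) to 0.40 (mt-Nd3).

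Ratios between pairs of genes have no shared total. The pairs were chosen after their values were seen, so the ratios are a description, with no test. Reads per base of mt-Nd5 over those of mt-Nd6, 2 complex I genes that meet end to end on opposite strands, were 1.10, 1.15 and 1.23 in PG, against 0.939, 0.931 and 0.940 in GC. The 3 GC values lay within 0.01 of each other, and all PG values were above them. On unique reads the ratio was 0.973 ± 0.059 in PG and 0.753 ± 0.011 in GC (SD, n = 3), again without overlap.

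The ratio of mt-Cytb to mt-Nd6 averaged 0.824 ± 0.086 in PG and 0.581 ± 0.036 in GC, and that of mt-Nd2 to mt-Co1 0.446 ± 0.034 in PG and 0.314 ± 0.033 in GC (SD, n = 3). mt-Nd3 over mt-Co3 stood at 2.77 ± 0.424 in PG and 1.75 ± 0.335 in GC. None of these overlapped. The genes that share an mRNA did not separate: mt-Nd4 over mt-Nd4l was 0.490 ± 0.070 in PG and 0.561 ± 0.103 in GC, and mt-Atp6 over mt-Atp8 was 2.53 ± 0.096 in PG and 2.63 ± 0.578 in GC, with overlap in both.

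Per length, the genes spanned a wide range. As total exon reads per kilobase and per 1000000 exon reads, the mean level over the 6 libraries was highest for mt-Co1 (5104), mt-Nd3 (5047), mt-Co2 (4720) and mt-Nd4l (4680). It then dropped to mt-Nd5 (3011), mt-Nd6 (2855), mt-Atp6 (2483), mt-Nd4 (2367), mt-Co3 (2217), mt-Cytb (2028) and mt-Nd2 (1969). mt-Nd1 (1269) and mt-Atp8 (985) stood lowest.

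All neighbours in this order overlapped in at least 1 of the 2 groups. The higher gene was above its neighbour in all 6 libraries for 4 steps: mt-Nd4l over mt-Nd5, mt-Atp6 over mt-Nd4, mt-Nd2 over mt-Nd1, and mt-Nd1 over mt-Atp8. The top place differed by group on this per-length scale: mt-Nd3 led in PG at 6488 ± 1583, followed by mt-Nd4l at 5863 ± 1321, and mt-Co1 led in GC at 4718 ± 805, followed by mt-Co2 at 4352 ± 1068 (SD, n = 3). mt-Nd3, mt-Nd4l, mt-Co1 and mt-Co2 all rest mostly on reads that were not counted as unique. The change of top place was not seen on unique exon reads per kilobase, scaled to all unique exon reads. There mt-Nd6 led in both groups, at 4390 in PG and 3897 in GC. mt-Co1 stood at 2480 in PG and 2244 in GC, mt-Nd3 at 418 in PG and 225 in GC, and mt-Co2 at 51.0 in PG and 50.0 in GC. Unique reads leave out most reads of mt-Co1, mt-Nd3 and mt-Co2, so neither order settles which gene stood highest.

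The rRNA and tRNA rows hold no exon reads, because the table gives them no annotated transcript; their reads appear as gene reads, all of them unique. Gene reads were therefore tested for these rows, in a second fit over 9645 genes. RNA of this kind is not translated, so its reads are pieces of rRNA or tRNA of footprint size and not footprints on an mRNA.

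Within all mitochondrial gene reads, rRNA made up 57.4%, 55.5% and 45.4% in PG, against 53.3%, 50.6% and 55.6% in GC. The protein genes made up 35.8%, 37.1% and 42.9% in PG, against 29.5%, 39.5% and 36.4% in GC. The tRNAs made up 6.80%, 7.41% and 11.7% in PG, against 17.1%, 9.94% and 8.05% in GC. All 3 classes overlapped between the groups. Of mapped reads, rRNA took 1.62% ± 0.179 in PG and 1.21% ± 0.182 in GC (SD, n = 3), with an exact permutation p of 0.1. The groups did not overlap, but only just, with 1.426% in PG replicate 3 and 1.417% in GC replicate 3. For the protein genes the nearest libraries were PG replicate 1 at 1.105% and GC replicate 3 at 0.926%, also with an exact permutation p of 0.1. Per 100 rRNA reads there were 62.2, 66.6 and 94.4 protein-gene reads in PG, against 55.2, 77.9 and 65.3 in GC, and these overlapped.

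The 2 rRNAs differed from each other. mt-Rnr2 (1094 to 2675), the RNA of the large ribosomal subunit, had 16388, 15722 and 14429 CPM of gene reads in PG, against 13092, 10433 and 14288 CPM in GC. The groups did not overlap, by a narrow margin, and the log2 fold change was 0.30 ± 0.20 (SE), with an adjusted p of 0.663 (edgeR). Per mapped read the groups overlapped. mt-Rnr1 (70 to 1024), the RNA of the small subunit, had 2386, 1940 and 3266 CPM in PG, against 2678, 2454 and 2861 CPM in GC. Its groups overlapped, and the log2 fold change was -0.07 ± 0.21 (SE), with an adjusted p of 0.934 (edgeR).

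PG replicate 3 had the least mt-Rnr2 and the most mt-Rnr1 of the PG group. There were 6.87, 8.10 and 4.42 mt-Rnr2 reads per mt-Rnr1 read in PG, against 4.89, 4.25 and 4.99 in GC. PG replicates 1 and 2 were above all GC libraries, and PG replicate 3 lay among them.

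**Figure D5:**
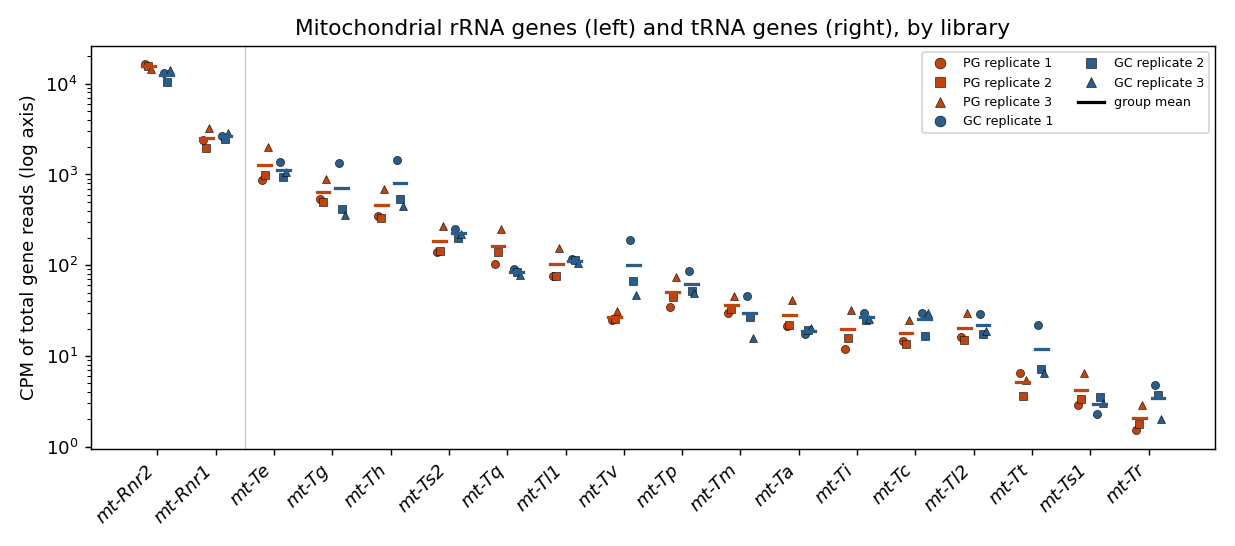
CPM of total gene reads (TMM-scaled, log axis) for the 2 rRNA genes and the 16 tested tRNA genes, the tRNAs in order of reads, with PG left of GC. Points are libraries and bars are group means. mt-Tv lies lower in all 3 PG libraries, and GC replicate 1 is the highest GC library for mt-Tg, mt-Th and mt-Tv.

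Reads of the 22 tRNAs were uneven. The 5 with the most reads held 88.5% of the tRNA reads: mt-Te (glutamate) 38.1%, mt-Tg (glycine) 20.6%, mt-Th (histidine) 19.2%, mt-Ts2 (serine) 6.51% and mt-Tq (glutamine) 3.96%. The other 17 included 6 that were not tested, mt-Tk, mt-Tf, mt-Tw, mt-Tn, mt-Ty and mt-Td, with at most 53 reads each over the 6 libraries. Of the 16 tested, 5 log2 fold changes were positive and 11 negative, and their median was -0.22, where the median of all genes in this fit was 0.0012.

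In edgeR 1 tRNA fell and none rose, while 0.332% of all genes were called lower; at an unadjusted p under 0.05, 4 tRNAs were lower and 2 higher, where 5.48% of all genes in this fit were lower and 4.58% higher. The tRNA that fell was mt-Tv (1025 to 1093), the valine tRNA between the rRNA genes, with 24.7, 25.4 and 31.0 CPM in PG, against 191, 66.3 and 46.4 CPM in GC. The GC libraries spread widely, with GC replicate 1 far above the other 2, and all were above PG. The log2 fold change was -1.90 ± 0.37 (SE), with an adjusted p of 0.0366 (edgeR). Without GC replicate 1 it was -1.06 with an adjusted p of 0.0164. It passed in 3 of the 6 fits on 5 libraries, missing the threshold without GC replicate 2 or PG replicates 1 or 2, at 0.182 or less, and it passed in neither DESeq2 nor limma-voom.

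In the other abundant tRNAs single libraries stood out on both sides. mt-Te had 862, 989 and 1994 CPM in PG, against 1359, 945 and 1058 CPM in GC. mt-Tg had 530, 499 and 887 CPM in PG, against 1338, 414 and 356 CPM in GC. mt-Th had 346, 330 and 693 CPM in PG, against 1451, 534 and 447 CPM in GC. PG replicate 3 was the highest PG library and GC replicate 1 the highest GC library in each of these, and the groups overlapped. Their log2 fold changes were 0.19 for mt-Te, -0.14 for mt-Tg and -0.83 for mt-Th. Without GC replicate 1 they were 0.35, 0.73 and -0.11.

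mt-Ts2 had 141, 142 and 268 CPM in PG, against 251, 201 and 218 CPM in GC, with a log2 fold change of -0.28. mt-Tq (3772 to 3842) went the other way from mt-Tv, with 102, 139 and 249.5 CPM in PG, against 91.2, 84.2 and 77.5 CPM in GC. Its groups did not overlap, and the log2 fold change was 0.95 ± 0.24 (SE), with an adjusted p of 0.111 (edgeR), while DESeq2 called it higher. Without PG replicate 3 it was 0.52. The groups did not overlap for 4 of the 16 tested tRNAs, mt-Tq and mt-Ta with PG above and mt-Tv and mt-Tt with PG below, while 16.6% of all genes in this fit did not overlap.

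The nuclear genes that act on mitochondrial DNA and RNA showed no matching rise. Of 61 tested genes in 3 lists, 0 were called higher and 1 fell in edgeR, with 23 positive and 38 negative log2 fold changes and a median of -0.12. At an unadjusted p under 0.05, 1 was higher and 8 were lower, where 4.82% of all tested genes were higher and 5.62% lower. Across all tested genes 0.329% were called lower. The gene that fell was Tsfm, the mitochondrial elongation factor Ts, which recycles the factor that brings tRNAs to the mitochondrial ribosome.

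Tsfm had 27.6, 25.1 and 31.0 CPM in PG, against 62.6, 53.5 and 43.2 CPM in GC. The groups were well apart. The log2 fold change was -0.92 ± 0.20 (SE), with an adjusted p of 0.0297 (edgeR). It passed without GC replicate 3 or PG replicate 3 and missed the threshold in the other 4 fits on 5 libraries, reaching an adjusted p of 0.199 without PG replicate 2. The 17 tested translation factors had a median of -0.29.

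For mitochondrial DNA transcription and maintenance, 13 genes were tested, with a median of -0.13. Its most abundant members were Lonp1, a protease of the matrix, at a log2 fold change of -0.37 ± 0.15 (SE), and Polg, the mitochondrial DNA polymerase, with -0.13 ± 0.20 (-0.28 on unique reads). For RNA processing and stability, 31 were tested, with a median of -0.07. Lrpprc, which stabilises mitochondrial mRNAs, was at -0.07 ± 0.13 and Fastk, a kinase-family protein tied to mt-Nd6 RNA, -0.29 ± 0.13 (SE). None of these 4 passed.

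Nuclear subunits of the same complexes lay on the other side of 0 from the mitochondrial ones. Of 77 tested, 70 were below 0 on the log2 scale and the median was -0.20. In edgeR 0 were called, while 26 were lower and 1 higher by unadjusted p under 0.05, beside 5.62% lower and 4.82% higher among all tested genes. DESeq2 called 7 lower and limma-voom 4, where these tools called 0.8% and 0.537% of all tested genes lower. By complex the medians were -0.22 (36 genes of complex I), -0.29 (9 of complex III), -0.18 (14 of complex IV) and -0.18 (18 of complex V).

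None of the most abundant nuclear members passed on total exon reads. In complex I, Ndufv1, which holds the flavin that accepts electrons from NADH, was at -0.05 ± 0.12 (log2 fold change, SE). In complex III, the core protein Uqcrc1 had -0.16 ± 0.12 and the small subunit Uqcr11 -0.33 ± 0.15. Cox4i1 and Cox6a2 of cytochrome c oxidase had -0.24 ± 0.12 and -0.23 ± 0.15. Of the 9494 exon reads of Cox6a2 only 203 were unique, and on these its log2 fold change was -0.80, with an adjusted p of 0.345 (edgeR). The ATP synthase beta and alpha subunits, Atp5b and Atp5a1, had -0.12 ± 0.11 and -0.21 ± 0.12 (SE).

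Mitochondrial reads per nuclear read of the same complex were therefore higher in PG for most complexes. For complex I there were 2.73, 2.68 and 3.48 mitochondrial reads per nuclear read in PG, against 1.49, 1.78 and 2.05 in GC. The groups did not overlap, and the means of 2.96 ± 0.449 in PG and 1.77 ± 0.279 in GC (SD, n = 3) give a ratio of 1.67. Complex III stood at 0.804 ± 0.097 in PG and 0.450 ± 0.0997 in GC and complex V at 0.150 ± 0.020 in PG and 0.098 ± 0.010 in GC, without overlap. Complex IV stood at 3.08 ± 0.505 in PG and 2.47 ± 0.590 in GC and overlapped. The exact permutation p was 0.1 for complexes I, III and V and 0.3 for complex IV.

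Summed levels of the cardiomyocyte and fibroblast markers lay lower in PG without overlap, while the other marker sums overlapped. The 12 ventricular cardiomyocyte markers, all detected, summed to 55720 to 65182 CPM in PG and 68715 to 74310 CPM in GC, and 1 of them was called lower, as was 1 of the 6 tested pericyte and smooth muscle markers, where 0.329% of all tested genes were. The 7 tested of 8 cardiac fibroblast markers summed to 550 to 559 CPM in PG and 585 to 646 CPM in GC. The other sums also cover tested markers only: 8 endothelial, 6 pericyte and smooth muscle, 6 macrophage and 5 erythroid. Sums of the endothelial (589 to 651 CPM in PG, 646 to 728 CPM in GC), pericyte and smooth muscle (541 to 578 CPM in PG, 482 to 567 CPM in GC), macrophage (176 to 249 CPM in PG, 241 to 260 CPM in GC) and erythroid markers (959 to 1562 CPM in PG, 1142 to 1839 CPM in GC) overlapped. The part of cell makeup in the mitochondrial results was not tested.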

How the data were processed

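The authors deposited 1 table of ribosome-protected fragments for 6 mouse heart libraries, with counts of exon and gene reads, unique and total, per the file headers, and RPKM, used here only to recover mapped reads. The expression values equal unique exon reads plus non-unique exon-exon reads, checked on every row. The authors' p-values and signed fold change (a score from their EDGE test, per the file headers) are named as theirs. The submitters' processing notes list GRCm38 and mm10. For aligner, counter and strand use: not given in the sources used here. Per-library columns left unused number 42.

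Total exon reads were tested with edgeR 4.0.16 (R 4.3.3; filterByExpr with minimum count 10, TMM, quasi-likelihood test, PG over GC, group as the only term), adjusted p under 0.05 over all genes tested, with standard errors from the F statistic. The rRNA and tRNA rows have 0 exon reads, so gene reads were tested instead, a choice made after seeing this. Single shares, and ratios of mitochondrial to nuclear reads, used the two-sided exact permutation test. Intervals cover counting error only. Alternatives used DESeq2 1.42.0, limma 3.58.1, other scalings, filters, read types and left-out libraries. Libraries within a group differed beyond counting noise, by chi-square. Members and lists were chosen with earlier results of these data known. Named were all protein and rRNA genes, the 5 tRNAs with the most reads and any called, and for each nuclear list its called members or its 2 most abundant; other tRNAs were named after their values were seen. Some items under this rule are not reported here.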

Additional observations from a re-analysis of the deposited data

How the results depend on the processing

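The number of genes called overall was 53 in edgeR and 127 with DESeq2, 80 with limma-voom, 181 with no filter, 90 on unique exon reads, 88 on the authors' expression values, 105 with scaling to mitochondrial protein reads and 22 with the replicate block; leaving out a library gave 19 to 102. Library size alone called 41, of which 61.0% were higher against 43.4%. For mitochondrial protein genes called higher (3), the counts in these settings were 5 (1 of them, mt-Cytb, shared with edgeR), 6, 8, 5, 5, 0 and 1, and 6 with library size alone and 0 on total gene reads (4 with DESeq2 and 0 with limma-voom there, 9 at an unadjusted p under 0.05); leaving out a library gave 0 to 4 and a median of 0.26 to 0.58, and the median was 0.070 when scaled to mitochondrial protein reads. The mitochondrial gene expression lists had 0 called lower with library size alone, with the replicate block and on gene reads, 2 when scaled to mitochondrial reads and 0 to 1 with a library left out. Their median was -0.051 with library size alone, -0.20 on expression values, -0.46 when scaled to mitochondrial reads and -0.21 to -0.11 with a library left out. The nuclear subunits called lower were 7 with DESeq2, 4 with limma-voom, 5 with no filter, 3 with minimum count 30, 4 on unique reads, 4 on expression values, 6 when scaled to mitochondrial reads (median -0.59) and 0 to 5 with a library left out.

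For tRNAs, 1 was called higher with DESeq2, library size alone and no filter, and 0 to 1 with a library left out; called lower were 0 with DESeq2, limma-voom, minimum count 30 and the replicate block, 3 with no filter and 0 to 2 with a library left out. In the gene-read fit library size alone moved the median of all genes by 0.15, to a log2 fold change of 0.15, and 42.5% of calls were then higher against 28.9%; relative to it mt-Tv stays lower (-1.70) and mt-Tq higher (1.07). The log2 ratios of PG to GC shares on unique reads were 0.040 for complex I, 0.18 for complex III and -0.33 for complex IV. Leaving out a library gave 0.10 to 0.16, 0.22 to 0.27 and -0.25 to -0.17 for these on total reads, -0.01 to 0.10 for complex V, 0.31 to 0.55 for the protein share of exon reads, 0.34 to 0.55 for the rRNA share of mapped reads and -0.27 to 0.36 for the tRNA share.

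No called gene turned its sign. Values near 0 did: mt-Co2 and mt-Co3 were -0.032 and -0.067 on unique reads and -0.033 and -0.068 on expression values, and mt-Co1, mt-Co2, mt-Co3 and mt-Nd6 were -0.21, -0.20, -0.28 and -0.25 when scaled to mitochondrial reads. mt-Tg was 0.078 with limma-voom, 0.043 with library size alone and 0.097 with the replicate block, and library size alone gave 0.057 for mt-Rnr1, 0.040 for mt-Tl2 and 5.9e-05 for Ndufv1. With a library left out the ranges that crossed 0 were -0.012 to 0.30 (mt-Co1), -0.077 to 0.39 (mt-Co2), -0.081 to 0.29 (mt-Co3), -0.30 to 0.049 (Polg), -0.14 to 0.030 (Lrpprc), -0.12 to 0.018 (Ndufv1), -0.30 to 0.084 (mt-Rnr1), -0.56 to 0.029 (mt-Tl1), -0.0028 to 0.78 (mt-Tm), -0.46 to 0.73 (mt-Tg), -0.46 to 0.14 (mt-Tl2), -0.28 to 0.42 (mt-Te) and -0.65 to 0.0013 (mt-Tp). Of 1193 values for single genes, single lists and single shares, 1025 kept their direction and side of the threshold or moved by less than 1 SD, 72 moved further, 34 lost and 29 gained a call, and 33 turned sign. The causes were not tested, except that leaving out a library or a stricter filter leaves fewer samples or genes to test.

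The labels do not pair the libraries by replicate number. Over all tested genes, deviations of same-numbered PG and GC libraries correlated at -0.011, -0.035 and -0.017. Such a check cannot exclude a pairing that acts on few genes, so the block values above rest on the number alone. With 3 libraries a group no exact p could go below 0.1, and 5 protein genes had under 5% unique reads.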
